A study of Mus musculus with 12 samples.

Results

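The genes described here were 9 genes of retinoid binding and metabolism, chosen by name: Adh7, Dhrs3, Dhrs9, Aldh1a1, Aldh1a3, Crabp1, Crabp2, Cyp26b1 and Rarg. Of these, 8 were measured, through 76 of the 221205 probe sets that carried a single gene symbol, among 17853 genes in all. Dhrs3 was not analysed here.

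Cells make retinoic acid from vitamin A by successive oxidations, in which alcohol or retinol dehydrogenases turn retinol into retinaldehyde and retinaldehyde dehydrogenases turn that into the acid. Binding proteins carry retinoic acid within the cell, nuclear receptors change transcription when they bind it, and enzymes of the CYP26 family break it down. In skin, both lack and excess of vitamin A disturb the epidermis, the sebaceous glands and the hair follicles.

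Epidermal cells were sorted from the back skin of female Gata6-mTomato reporter mice on a C57BL6/CBA background, taken in telogen, when hair follicles rest. Gata6+Itga6- cells carried the reporter of the transcription factor Gata6 and lacked integrin alpha 6, the surface protein of basal keratinocytes. Gata6+Itga6+ cells carried both. CD34+ cells were Itga6+ cells without the reporter that carried CD34, a marker of the hair follicle bulge, and remaining basal cells were Itga6+ cells with neither the reporter nor CD34. All mice carried the reporter, so no population came from animals without it, and the reporter marks cells by a fluorescent protein rather than by Gata6 itself. The mice were matched for age, which the labels do not state, and they do not say whether animals were pooled. Each population had 3 samples named as biological replicates, each amplified and hybridised to its own exon array, and p-values measure the spread between these samples.

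Levels are log2(intensity + 1), with a gene's level the median of its probe sets, and differences understate the change of dim genes. A gene was called at an adjusted p under 0.05 in a limma fit over all 17853 genes and 12 arrays (Benjamini-Hochberg). The level of silent genes, 2.46, was that under which 95% of 1144 smell and pheromone receptor genes lay. Where the lower population lay under it, the fold was taken against it and is a lower bound ("at least"). Over all genes, r was 0.94 to 0.96 between replicates, against 0.83 to 0.94 for arrays from separate populations. The sort genes Gata6 and Cd34 followed the gates, with Gata6 at 5.84, 4.39, 2.84 and 2.73 in Gata6+Itga6-, Gata6+Itga6+, CD34+ and remaining basal cells, and Cd34 at 7.95 in CD34+ cells against at most 1.96 elsewhere. Itga6 followed them less clearly, at 6.02, 7.28, 6.76 and 7.67 in the same order. It was lowest in Gata6+Itga6- cells but far above the silent level there, and its highest array there, 6.36, lay next to the lowest CD34+ array, 6.37. All 7 keratinocyte markers lay above the silent level in every population. The summed intensity of 5 upper follicle markers was 2349 to 2477 in Gata6+Itga6- arrays, 856.8 to 1221 in Gata6+Itga6+ arrays, 59.7 to 91.95 in CD34+ arrays and 48.5 to 90.94 in remaining basal arrays. In RNA from sorted populations, fewer cells of a type and less RNA per cell cannot be told apart.

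Of the 8 measured genes, 6 lay above the silent level in at least 1 population, while 8745 of all 17853 genes lay under it in all 4. Of the 8, 5 differed across the 4 populations (limma F test), beside 9.38% of all genes. These 5 were Crabp2, Crabp1, Adh7, Cyp26b1 and Aldh1a1. Crabp2 was highest in Gata6+Itga6- cells, Adh7 was lowest there, Aldh1a1 was highest in Gata6+Itga6+ cells, and Crabp1 and Cyp26b1 were highest in CD34+ cells. In the fit described above, on the median of the probe sets, Rarg, Aldh1a3 and Dhrs9 passed no test of a whole gene. The 8 genes were compared in 6 pairs of populations that share arrays with each other, which made 48 tests and 17 calls.

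**Figure D1:**
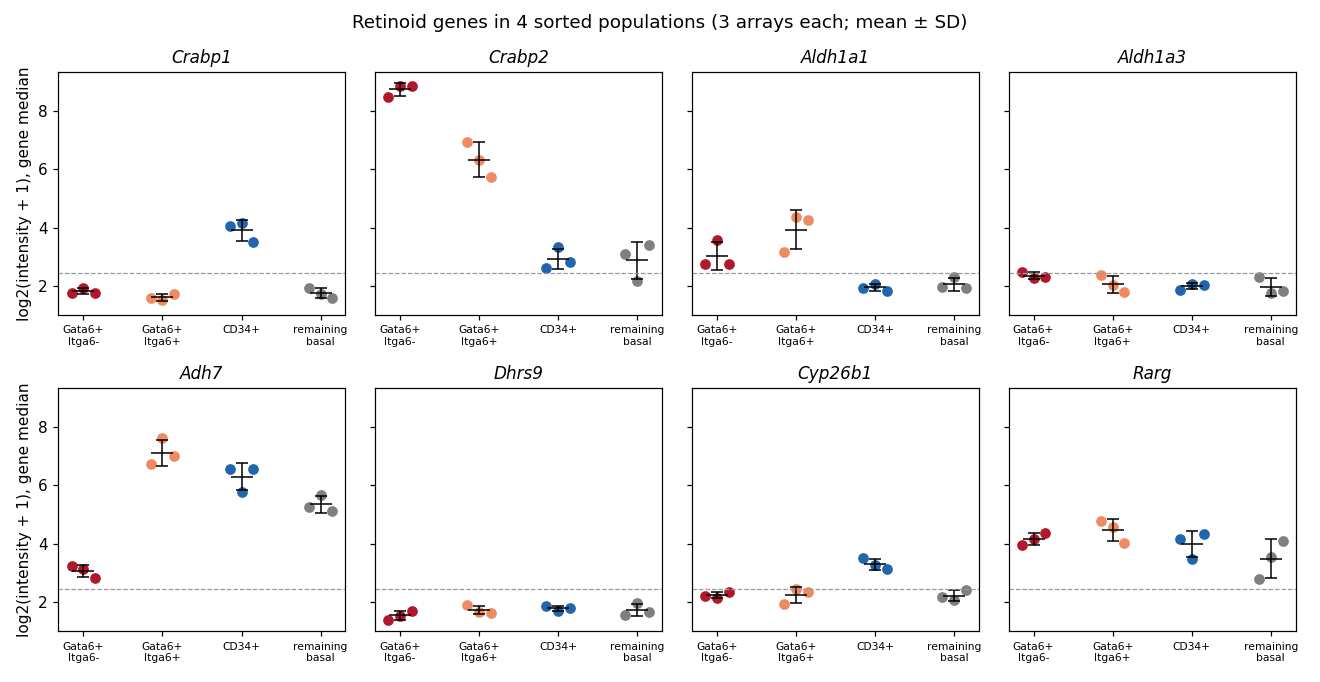
Level of each of the 8 measured genes on every array, as log2(intensity + 1), in the 4 populations. Points are arrays, bars are the mean ± SD of 3 arrays and the dashed line is the silent level of 2.46; Crabp2 averaged 8.73 in Gata6+Itga6- cells and 2.89 in remaining basal cells, while Adh7 averaged 3.08 in Gata6+Itga6- cells and 5.35 to 7.12 in the others.

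Crabp2, which carries retinoic acid to its nuclear receptors, differed most among these genes. Its levels were 8.48, 8.86 and 8.86 in the Gata6+Itga6- samples and 6.93, 6.32 and 5.74 in the Gata6+Itga6+ samples, against 2.63, 3.32 and 2.83 in the CD34+ samples and 3.09, 2.18 and 3.41 in the remaining basal samples. Both reporter-positive populations stood above both reporter-negative ones on every array, and Gata6+Itga6- cells stood above Gata6+Itga6+ cells without overlap. Crabp2 was 5.28-fold higher in the Gata6+Itga6- cells than in the Gata6+Itga6+ cells (log2 change 2.40, SE 0.36, adjusted p = 0.00616). It was 55.86-fold higher in the Gata6+Itga6- cells than in CD34+ cells (adjusted p = 3.6e-06) and 57.26-fold higher than in remaining basal cells (adjusted p = 7.19e-06). Gata6+Itga6+ cells held 10.57 times the level of CD34+ cells (adjusted p = 0.000331) and 10.84 times that of remaining basal cells (adjusted p = 0.00103). CD34+ and remaining basal cells, at 2.93 ± 0.36 and 2.89 ± 0.63 (SD, n = 3 each), were next to each other in the order, with a difference of 0.04 and a 95% interval of -0.76 to 0.83.

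All 6 probe sets of Crabp2 were higher in both reporter-positive populations than in CD34+ or remaining basal cells, and 4 of them were called in each of those 4 pairs. Between Gata6+Itga6- and Gata6+Itga6+ cells all 6 were higher in the first and 2 were called. With the mean of the probe sets in place of their median, the log2 change between Gata6+Itga6+ and CD34+ cells was 2.26 in place of 3.40, and the call held. The summed intensity of 7 markers of suprabasal differentiation moved the same way between some populations. It was 2038 to 2193 in Gata6+Itga6- arrays and 1173 to 1582 in Gata6+Itga6+ arrays. CD34+ arrays had 398.5 to 641.6 and remaining basal arrays 786.9 to 1084. Single markers did not all follow this sum. Krt1 averaged 4.77 in Gata6+Itga6- cells, above CD34+ cells (3.03) but below Gata6+Itga6+ and remaining basal cells (7.15 in the latter). Krt10 averaged 6.90 in CD34+ cells and differed little among the others (9.30 to 9.61). Krt10, Ivl, Lor, Sbsn, Dsc1 and Grhl3 were highest in Gata6+Itga6- cells. The part of the suprabasal markers in the Crabp2 values was not tested.

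Crabp1, the other cytoplasmic carrier of retinoic acid, was highest in CD34+ cells. Its levels were 1.77, 1.94 and 1.76 in the Gata6+Itga6- samples, 1.58, 1.52 and 1.75 in the Gata6+Itga6+ samples, 4.05, 4.17 and 3.49 in the CD34+ samples, and 1.94, 1.74 and 1.60 in the remaining basal samples. Every CD34+ array stood above every other array, and the other 9 arrays lay under the silent level. Crabp1 was at least 2.72-fold lower in Gata6+Itga6- cells than in CD34+ cells (log2 change -2.08, SE 0.17, adjusted p = 2.84e-05) and at least 2.72-fold lower in Gata6+Itga6+ cells (log2 change -2.29, adjusted p = 2.78e-05). It was at least 2.72-fold higher in CD34+ than in remaining basal cells (log2 change 2.14, adjusted p = 3.56e-05).

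The probe sets of Crabp1 did not move together. A pair of them carried most of the difference: one had 1.44, 1.41, 4.61 and 1.50 in Gata6+Itga6-, Gata6+Itga6+, CD34+ and remaining basal cells, and the other 1.59, 1.48, 4.44 and 1.31. The brightest of the 7 had 6.72, 6.55, 6.22 and 6.47 in the same order. Taken alone as the gene's level it turned the direction, with log2 changes of 0.49, 0.33 and -0.25 in the same 3 comparisons and no call. In all, 3, 2 and 3 of the 7 probe sets were called in them. The log2 changes were -1.19, -1.19 and 1.29 with the mean of the probe sets and -1.07, -1.13 and 1.09 with an offset of 8 in place of 1, and these calls held.

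Crabp1 is also expressed in dermal fibroblasts and the dermal papilla, and markers of those cells were low. Of 12 such markers, 0, 1, 2 and 1 lay above the silent level in Gata6+Itga6-, Gata6+Itga6+, CD34+ and remaining basal cells. Their summed intensity was 28.5 to 31.9 in Gata6+Itga6- arrays, 31.84 to 33.6 in Gata6+Itga6+ arrays, 36.75 to 38.17 in CD34+ arrays and 33.89 to 39.28 in remaining basal arrays. Among the dermal markers in CD34+ cells, the collagen genes Col1a1 and Col1a2 had levels of 2.83 and 2.89. Col3a1, Dcn, Pdgfra, Corin and Sox2 lay between 1.34 and 2.00 there, under the silent level, and are part of the same sum. The CD34+ range of that sum lay within the remaining basal range. Markers of bulge cells and melanocytes stood higher in CD34+ arrays. The summed intensity of 7 bulge markers, which include the sort gene Cd34, was 1041 to 1303 there, against at most 172.2 in any other array. That of 6 melanocyte markers was 67.87 to 73.72, against at most 30.37. Of the melanocyte markers, Mitf averaged 5.77 in CD34+ cells and Mlana 3.01, while Dct, Tyrp1, Tyr and Pmel lay under the silent level. The part of these markers in the Crabp1 and Cyp26b1 values was not tested.

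Cyp26b1, which hydroxylates and so removes retinoic acid, was also highest in CD34+ cells. Its levels were 2.23, 2.14 and 2.34 in the Gata6+Itga6- samples, 1.96, 2.47 and 2.35 in the Gata6+Itga6+ samples, 3.51, 3.28 and 3.14 in the CD34+ samples, and 2.19, 2.09 and 2.43 in the remaining basal samples. The CD34+ arrays stood above all others and the other 3 populations overlapped. Cyp26b1 was at least 1.80-fold lower in Gata6+Itga6- cells than in CD34+ cells (log2 change -1.07, SE 0.16, adjusted p = 0.00153) and at least 1.80-fold lower in Gata6+Itga6+ cells (adjusted p = 0.00314). It was at least 1.80-fold higher in CD34+ than in remaining basal cells (adjusted p = 0.00238). The 3 other populations averaged between 2.24 and 2.26, with differences of at most 0.02.

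One of the 8 Cyp26b1 probe sets carried much of this. It had 1.68, 1.69 and 1.39 in the Gata6+Itga6- samples, 1.61, 1.50 and 1.56 in the Gata6+Itga6+ samples, 5.90, 6.56 and 6.17 in the CD34+ samples, and 2.24, 1.81 and 1.39 in the remaining basal samples. It was the single probe set called in each of the 3 comparisons (adjusted p = 3.17e-06, 4.86e-06 and 6.09e-06), although all 8 were lower in both reporter-positive populations than in CD34+ cells. The brightest probe set averaged 5.48, 5.46, 6.36 and 5.31 in the same order of populations and ended all 3 calls when it stood for the gene (adjusted p = 0.0832, 0.133 and 0.0553). The log2 changes were -1.71, -1.96 and 2.28 over probe sets above the silent level and -0.55, -0.54 and 0.55 with an offset of 8.

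Crabp1 and Cyp26b1 were the genes of the list highest in CD34+ cells, and the 250 bases before the annotated start of each are shown to set them side by side (RefSeq, GRCm38.p6, 5' to 3' on the gene's strand). Capitals, where present, mark matches to a retinoid receptor half-site (the letters AGGTCA or GGGTCA, and also AGTTCA or GGTTCA) or a GATA motif (the letters AGATAA or AGATAG, and also TGATAA or TGATAG), each searched on both strands. Crabp1 lies at chr9:54764498-54764747 on the + strand and Cyp26b1 at chr6:84593811-84594060 on the - strand.
Crabp1: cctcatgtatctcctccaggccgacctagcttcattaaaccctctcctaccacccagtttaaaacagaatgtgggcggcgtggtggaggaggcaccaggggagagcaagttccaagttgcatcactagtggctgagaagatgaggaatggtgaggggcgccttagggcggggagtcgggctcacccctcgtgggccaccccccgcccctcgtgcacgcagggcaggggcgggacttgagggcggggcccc
Cyp26b1: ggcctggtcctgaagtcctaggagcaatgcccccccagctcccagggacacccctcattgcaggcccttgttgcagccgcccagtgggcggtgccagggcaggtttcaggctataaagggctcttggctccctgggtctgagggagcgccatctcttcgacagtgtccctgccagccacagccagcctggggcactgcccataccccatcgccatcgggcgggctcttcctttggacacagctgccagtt
Neither window held these letters, which says nothing of more distant sequence. Of 32851 such windows, 38.64% held a half-site and 26.54% a GATA motif. The sequences of Crabp2 and Aldh1a3 were not used here.

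**Figure D2:**
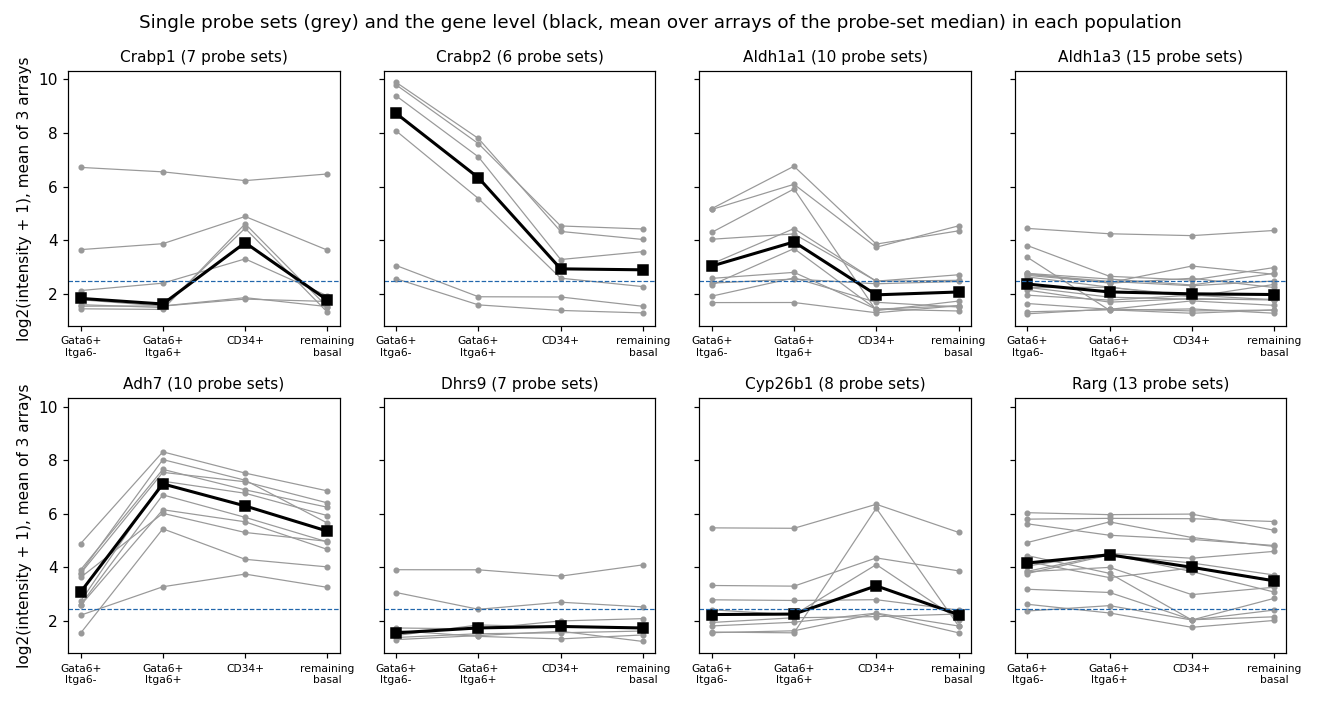
Mean level of each probe set (grey lines) and of the gene (black line), as log2(intensity + 1) over 3 arrays, in the 4 populations. The dashed line is the silent level; all 10 probe sets of Adh7 are lowest in Gata6+Itga6- cells, by 1.06 to 4.49 against Gata6+Itga6+ cells, while a pair of the 7 Crabp1 probe sets and 1 of the 8 Cyp26b1 probe sets stand out in CD34+ cells.

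Adh7, an alcohol dehydrogenase of epithelia that oxidises retinol, was lowest in Gata6+Itga6- cells. Its levels were 3.24, 3.15 and 2.85 in the Gata6+Itga6- samples, 6.72, 7.61 and 7.02 in the Gata6+Itga6+ samples, 6.57, 5.76 and 6.55 in the CD34+ samples, and 5.27, 5.68 and 5.12 in the remaining basal samples. The 3 Gata6+Itga6- arrays lay far below the other 9, and the 3 Itga6+ populations did not overlap one another. Adh7 was 16.45-fold lower in Gata6+Itga6- cells than in the Gata6+Itga6+ cells (log2 change -4.04, SE 0.28, adjusted p = 5.68e-05). It was 9.30-fold lower in Gata6+Itga6- cells than in CD34+ cells (adjusted p = 3.93e-05) and 4.85-fold lower than in remaining basal cells (adjusted p = 0.000722).

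Adh7 and Crabp2 thus had opposite signs between the Gata6+ populations, with Adh7 lower and Crabp2 higher in cells without Itga6. Among Itga6+ cells, Adh7 was 3.39-fold higher in the Gata6+Itga6+ cells than in remaining basal cells (adjusted p = 0.0128). That call ended without the first remaining basal replicate (adjusted p = 0.0541), after quantile normalization (0.0507), with a covariate for array brightness (0.0628) and with the 2 populations fitted alone (0.0649). The difference of 0.82 between Gata6+Itga6+ and CD34+ cells was not called (95% interval 0.21 to 1.44, adjusted p = 0.162). Nor was that of 0.94 between CD34+ and remaining basal cells (95% interval 0.32 to 1.56, adjusted p = 0.0944), which was called without the second CD34+ replicate (1.21, adjusted p = 0.0322) and with the mean of the probe sets (0.76, adjusted p = 0.0308). All 10 probe sets of Adh7 were lower in Gata6+Itga6- cells than in each other population, and 9, 9 and 8 were called against Gata6+Itga6+, CD34+ and remaining basal cells. Between Gata6+Itga6+ and CD34+ cells 9 were higher in the first and 1 was lower (3.28 against 3.75), and none was called. The summed intensity of 7 keratinocyte markers was also lower in Gata6+Itga6- cells. It was 1730 to 2076 there and 2683 to 2933 in Gata6+Itga6+ arrays. CD34+ arrays had 2463 to 2833 and remaining basal arrays 2570 to 3062. Of these markers, Krt5 averaged 6.67 in Gata6+Itga6- cells against 9.17 to 9.54 in the others, and Trp63 6.62 against 7.98 to 8.12. Krt14 and Krt15 were also lowest there. Epcam and Krtdap went the other way and were highest there, at 6.74 against 3.65 to 5.33 and 8.08 against 4.18 to 7.56. Cdh1, at 7.15, lay below its Gata6+Itga6+ mean (7.56) but above those of CD34+ (6.65) and remaining basal cells (6.61). The part of these markers in the Adh7 values was not tested.

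Aldh1a1, a retinaldehyde dehydrogenase that makes retinoic acid, was highest in Gata6+Itga6+ cells. Its levels were 2.75, 3.59 and 2.76 in the Gata6+Itga6- samples and 3.15, 4.38 and 4.27 in the Gata6+Itga6+ samples, against 1.95, 2.09 and 1.84 in the CD34+ samples and 1.96, 2.32 and 1.92 in the remaining basal samples. All arrays with the reporter stood above the silent level and above all arrays without it, and the Gata6+ populations overlapped each other. Aldh1a1 was at least 2.78-fold higher in the Gata6+Itga6+ cells than in CD34+ cells (log2 change 1.98, SE 0.32, adjusted p = 0.00622) and than in remaining basal cells (log2 change 1.87, adjusted p = 0.0215). With an offset of 8 these changes were 1.06 and 1.02, and the second call ended (adjusted p = 0.061).

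The comparison of Aldh1a1 with remaining basal cells also lost its call without Gata6+Itga6+ replicate 2 or 3 (adjusted p = 0.0696 and 0.0933), without remaining basal replicate 1 or 2 (0.0828 and 0.0564), with a covariate for array brightness (0.128) and with the 2 populations fitted alone (0.109). Gata6+Itga6- cells were not called against Gata6+Itga6+ cells (log2 change -0.90, 95% interval -1.62 to -0.18, adjusted p = 0.225), CD34+ cells (1.08, adjusted p = 0.0796) or remaining basal cells (0.97, adjusted p = 0.153). Each of these 3 was called without the first Gata6+Itga6+ replicate (log2 changes -1.29, 1.08 and 0.97, adjusted p = 0.0309, 0.0172 and 0.039). That against CD34+ cells was also called with the mean of the probe sets, over probe sets above the silent level, after quantile normalization and without genes under the silent level (adjusted p = 0.0324, 0.0349, 0.0426 and 0.0404). All 10 probe sets were higher in Gata6+Itga6+ cells than in CD34+ and remaining basal cells, with 4 and 3 called. The one with the widest span had 3.38, 5.56 and 3.94 in the Gata6+Itga6- samples and 5.63, 6.24 and 5.87 in the Gata6+Itga6+ samples, against 1.38, 1.28 and 1.45 in the CD34+ samples and 1.48, 2.06 and 1.63 in the remaining basal samples. Aldh1a1 has a close paralog, Aldh1a7, and signal shared between the probes of these genes was not tested.

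Adh7 and Aldh1a1 act one after the other on retinol and retinaldehyde and had different orders of populations, so their windows before the start are shown with the same motifs in capitals. Adh7 lies at chr3:138217523-138217772 on the + strand and Aldh1a1 at chr19:20601718-20601967 on the + strand.
Adh7: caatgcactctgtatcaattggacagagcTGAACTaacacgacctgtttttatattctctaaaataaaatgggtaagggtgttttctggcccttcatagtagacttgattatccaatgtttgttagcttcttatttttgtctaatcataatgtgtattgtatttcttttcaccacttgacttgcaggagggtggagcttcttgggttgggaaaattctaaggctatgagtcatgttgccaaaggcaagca
Aldh1a1: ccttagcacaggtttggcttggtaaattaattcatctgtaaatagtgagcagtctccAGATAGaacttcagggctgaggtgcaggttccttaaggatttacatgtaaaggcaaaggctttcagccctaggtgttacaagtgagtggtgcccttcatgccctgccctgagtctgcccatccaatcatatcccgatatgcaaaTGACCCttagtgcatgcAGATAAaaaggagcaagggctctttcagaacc
Adh7 held 1 half-site, TGAACT, 221 bases before the start. Aldh1a1 held 1 half-site, TGACCC, 49 bases before the start, and GATA motifs AGATAG and AGATAA 193 and 32 bases before it. The window of another annotated start of Aldh1a1 held no match. These matches are letters in a window and show no binding.

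Aldh1a3, another retinaldehyde dehydrogenase, had a gene level under the silent level in every population, at 2.36 ± 0.12 in Gata6+Itga6- cells, 2.07 ± 0.29 in Gata6+Itga6+ cells, 2.00 ± 0.11 in CD34+ cells and 1.97 ± 0.31 in remaining basal cells (SD, n = 3 each). It was not called in the F test (adjusted p = 0.478). Of its 15 probe sets, 8 averaged above the silent level in at least 1 population, and the brightest had 4.44, 4.24, 4.17 and 4.36 in Gata6+Itga6-, Gata6+Itga6+, CD34+ and remaining basal cells. Another of them, chosen after the values were seen, was called, higher in Gata6+Itga6- cells than in CD34+ cells (3.80 against 2.51, adjusted p = 0.0226). With the mean of the probe sets Aldh1a3 was called in that comparison too (log2 change 0.39, adjusted p = 0.0313). Dhrs9, a short-chain dehydrogenase that oxidises retinol, averaged 1.56, 1.74, 1.80 and 1.74 in Gata6+Itga6-, Gata6+Itga6+, CD34+ and remaining basal cells, with no call (F test, adjusted p = 0.673). Of its 7 probe sets, 2 averaged above the silent level in at least 1 population, the brighter at 3.67 to 4.10. Gene levels under the silent level give no order of these populations.

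Rarg, the retinoic acid receptor most abundant in epidermis, was above the silent level on every array and not called in any comparison. Its levels were 3.95, 4.16 and 4.37 in the Gata6+Itga6- samples, 4.79, 4.57 and 4.05 in the Gata6+Itga6+ samples, 4.18, 3.49 and 4.34 in the CD34+ samples, and 2.81, 3.57 and 4.12 in the remaining basal samples. All neighbours in this order overlapped. The largest difference, 0.97 between Gata6+Itga6+ and remaining basal cells, had a 95% interval of 0.22 to 1.72 (adjusted p = 0.283; F test, adjusted p = 0.332). None of its 13 probe sets was called.

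**Figure D3:**
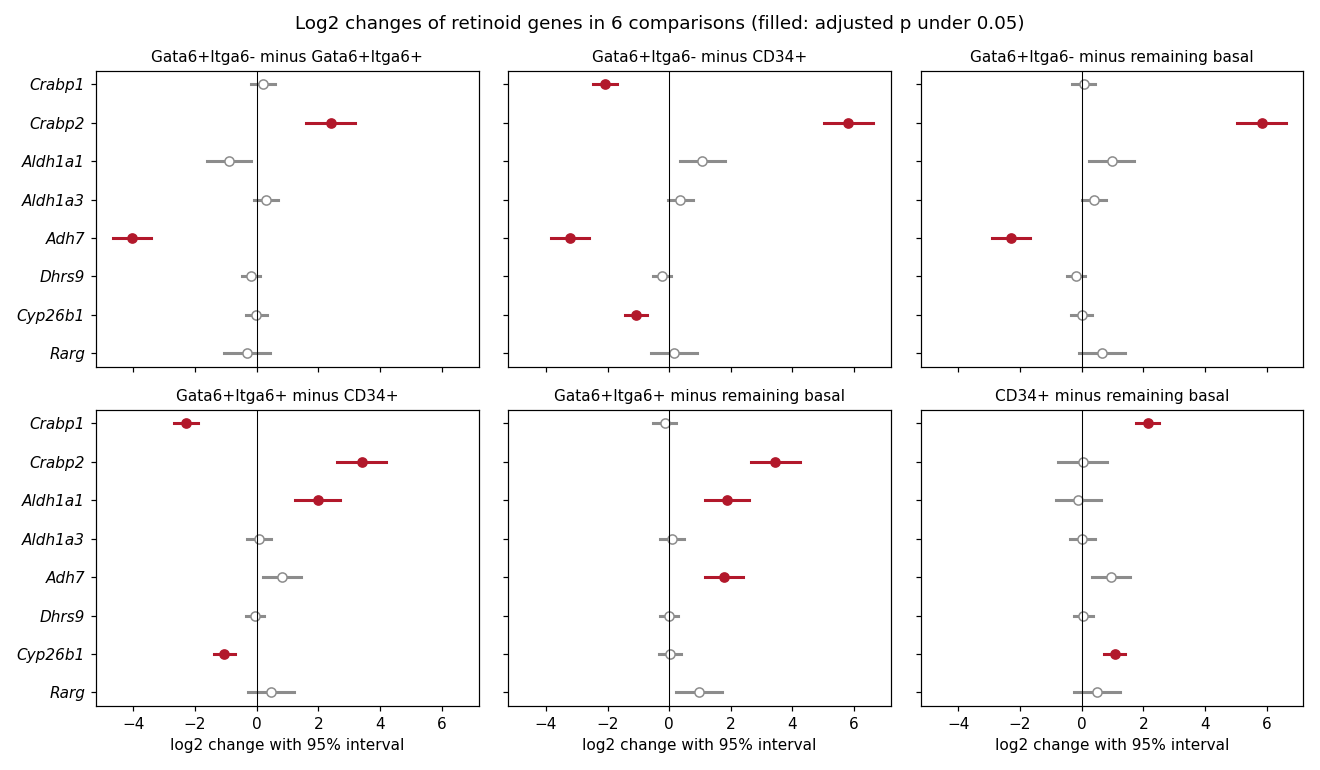
Log2 change of each of the 8 genes in the 6 comparisons (first-named population minus the second), with the limma 95% interval on the x axis. Filled points have an adjusted p under 0.05; Crabp2 and Adh7 lie on opposite sides of 0 between Gata6+Itga6- and Gata6+Itga6+ cells, at 2.40 and -4.04.

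Read by comparison, 1 of the 8 genes was called higher and 1 lower in Gata6+Itga6- cells than in Gata6+Itga6+ cells, beside 3.18% of all genes called. Against CD34+ cells, Gata6+Itga6- cells had 1 higher and 3 lower, beside 7.96%. Against remaining basal cells they had 1 higher and 1 lower, beside 5.11%. Gata6+Itga6+ cells had 2 higher and 2 lower than CD34+ cells, beside 4.59%, and 3 higher and 0 lower than remaining basal cells, beside 1.36%. CD34+ cells had 2 higher and 0 lower than remaining basal cells, beside 5.00%. The share of these genes called was above the background in all 6 comparisons, in a list chosen with results of these data known.

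At the level of single probe sets, Gata6+Itga6- cells had 2 of the 76 higher and 9 lower than Gata6+Itga6+ cells, beside 0.933% of all probe sets called. They had 6 higher and 13 lower than CD34+ cells, beside 3.98%, and 5 higher and 8 lower than remaining basal cells, beside 2.38%. Gata6+Itga6+ cells had 8 higher and 3 lower than CD34+ cells, beside 1.86%, and 9 higher and 0 lower than remaining basal cells, beside 0.528%. CD34+ cells had 5 higher and 0 lower than remaining basal cells, beside 2.50%. Probe sets of a gene share its transcript and are not independent.

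The rest of the retinoid pathway was read from a list of 54 further genes, of which 50 were measured and 23 lay above the silent level in at least 1 population. Of all 17853 genes, 8745 lay under that level in all populations, so the count of the list was not above the background. In the order of comparisons above, 3, 7, 5, 3, 2 and 1 of the 50 were called higher and 1, 3, 1, 1, 1 and 1 lower. Over all genes, the shares called higher were 1.17, 3.22, 2.96, 2.40, 1.07 and 3.32%. The shares called lower were 2.01, 4.74, 2.15, 2.18, 0.286 and 1.67%. The median log2 change of the list was 0.09, 0.09, 0.10, 0.03, 0.04 and 0.01, beside -0.03, -0.02, 0.00, 0.02, 0.04 and 0.02 over all genes. In all, 10 of the 50 differed across the 4 populations (F test), beside 9.38% of all genes, and 12 were called in at least 1 comparison, beside 12.1%. Of these 12, 9 were among the 24 that oxidise or reduce retinol and retinaldehyde. With an offset of 8, the log2 changes behind 26 of the 29 calls were smaller by over 1.5 times.

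The short-chain dehydrogenases Sdr16c5 and Sdr16c6 were higher in Gata6+ cells. Sdr16c6 had 4.81, 5.25 and 5.42 in the Gata6+Itga6- samples and 2.27, 2.40 and 2.71 in the Gata6+Itga6+ samples, against 1.28, 1.52 and 1.42 in the CD34+ samples and 1.42, 1.40 and 1.35 in the remaining basal samples. Gata6+Itga6- arrays stood clear of all others, and the fold was at least 6.49 against each population (adjusted p = 3.52e-05, 3.57e-07 and 9.75e-07). Sdr16c6 was also called higher in Gata6+Itga6+ cells than in CD34+ and remaining basal cells (log2 changes 1.05 and 1.07, adjusted p = 0.0044 and 0.0107), with all 3 means under the silent level. With an offset of 8 those 2 calls ended (0.38 and 0.38, adjusted p = 0.104 and 0.189).

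Sdr16c5 averaged 5.27 ± 0.66 in Gata6+Itga6- cells and 4.66 ± 0.69 in Gata6+Itga6+ cells, while CD34+ cells had 2.49 ± 0.34 and remaining basal cells 2.38 ± 0.09 (SD, n = 3 each). It was 6.86-fold higher in the Gata6+Itga6- cells than in CD34+ cells (adjusted p = 0.000943) and at least 6.99-fold higher than in remaining basal cells (adjusted p = 0.00115). In Gata6+Itga6+ cells it was 4.49-fold higher than in CD34+ cells (adjusted p = 0.00831) and at least 4.58-fold higher than in remaining basal cells (adjusted p = 0.0169). The last call ended when any one of 4 arrays was left out, such as the first Gata6+Itga6+ replicate (adjusted p = 0.0576).

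The retinol dehydrogenases Rdh12, Rdh9 and Rdh1 and the aldehyde dehydrogenase Aldh1a7 were called higher in Gata6+Itga6- cells than in CD34+ cells. Rdh12 averaged 4.28 in Gata6+Itga6- cells, against 2.91 in Gata6+Itga6+, 2.49 in CD34+ and 2.63 in remaining basal cells (adjusted p = 0.0372, 0.00382 and 0.00935). Rdh9, read by 2 probe sets, averaged 3.80 in Gata6+Itga6- cells, against 2.38 in Gata6+Itga6+, 1.60 in CD34+ and 1.45 in remaining basal cells (adjusted p = 0.0268, 0.000775 and 0.000795). The calls against Gata6+Itga6+ cells ended when any one of 9 arrays was left out for Rdh12, or of 4 for Rdh9. That of Rdh12 also ended with the brightest probe set (adjusted p = 0.434), an offset of 8 (0.0676) and the 2 populations fitted alone (0.108). It ended too with the replicate number as a block (0.0771) and with the letter in the array's label as a block (0.071). The labels do not state what that letter stands for. That of Rdh9 ended with a covariate for array brightness (0.109) and with the 2 populations alone (0.0684). Rdh1 averaged 3.27 in Gata6+Itga6- cells against 1.85 in CD34+ cells (adjusted p = 0.0324), and any one of 5 arrays ended that call when left out. The Rdh12 call against remaining basal cells ended with the 2 populations fitted alone (adjusted p = 0.0867) and with the brightest probe set (0.0908). Aldh1a7 had 4.37, 4.85 and 3.87 in the Gata6+Itga6- samples and 3.26, 2.64 and 3.16 in the Gata6+Itga6+ samples, against 2.72, 1.60 and 1.69 in the CD34+ samples and 2.21, 1.75 and 2.59 in the remaining basal samples. Gata6+Itga6- arrays did not overlap the others, and the fold was at least 3.73 against CD34+ and remaining basal cells (adjusted p = 0.00193 and 0.00483). Against Gata6+Itga6+ cells Aldh1a7 was not called (log2 change 1.34, adjusted p = 0.0856). Rdh1 and Rdh9, like Sdr16c5 and Sdr16c6, are close paralogs whose probes could share signal. The summed intensity of 12 sebaceous gland markers was 66.01 to 112.9 in Gata6+Itga6- arrays and 104.3 to 129.3 in Gata6+Itga6+ arrays. It was 54.63 to 83.2 in CD34+ arrays and 62.3 to 106.7 in remaining basal arrays. In that order, 5, 5, 4 and 4 of the markers lay above the silent level. Plin2 was highest in Gata6+Itga6- cells (5.28 against 3.01 to 4.80) and Scd1 in remaining basal cells (5.12 against 2.96 to 4.76). Mgst1 and Acsbg1 were highest in Gata6+Itga6+ cells, and Fasn differed little (2.96 to 3.17). The part of the sebaceous markers in the dehydrogenase values was not tested.

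The alcohol dehydrogenases went in other directions. Adh1 had 1.85, 2.14 and 2.30 in the Gata6+Itga6- samples, 2.16, 2.32 and 1.75 in the Gata6+Itga6+ samples, and 1.87, 2.16 and 1.98 in the CD34+ samples, against 3.31, 3.33 and 3.30 in the remaining basal samples. Remaining basal cells alone lay above the silent level, and Adh1 was at least 1.81-fold lower in each of the others (adjusted p = 0.0013, 0.00425 and 0.000891). With the brightest probe set for the gene all 3 calls ended (adjusted p = 0.117, 0.798 and 0.0557), and with the mean of the probe sets the call in Gata6+Itga6+ cells ended (0.0865). Adh5, which also disposes of formaldehyde, had 3.19, 3.29 and 2.92 in the Gata6+Itga6- samples, against 5.04, 4.79 and 5.55 in the Gata6+Itga6+ samples and 4.19, 5.02 and 5.30 in the CD34+ samples and 3.78, 3.61 and 4.71 in the remaining basal samples. It was 3.97-fold lower in Gata6+Itga6- cells than in Gata6+Itga6+ cells (adjusted p = 0.0129) and 3.25-fold lower than in CD34+ cells (adjusted p = 0.0121), and was not called against remaining basal cells (log2 change -0.90, adjusted p = 0.23). With the mean of the probe sets the first log2 change was -1.27 in place of -1.99, and the call held. Leaving out the third Gata6+Itga6- replicate ended both calls (adjusted p = 0.0569 and 0.0513), and leaving out the third Gata6+Itga6+ replicate the first (0.0591) and the third CD34+ replicate the second.

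Cyp2s1, a cytochrome P450 able to metabolise retinoic acid, was highest in CD34+ cells, as was Cyp26b1. Its levels were 2.39, 2.22 and 2.63 in the Gata6+Itga6- samples, 2.98, 2.51 and 3.02 in the Gata6+Itga6+ samples, 3.70, 3.87 and 5.17 in the CD34+ samples, and 2.38, 2.80 and 2.44 in the remaining basal samples. All CD34+ arrays stood above the others (adjusted p = 0.00662 and 0.0415 for Gata6+Itga6- and Gata6+Itga6+ cells against CD34+ cells, and 0.0143 for CD34+ against remaining basal cells). The call between Gata6+Itga6+ and CD34+ cells ended when any one of 9 arrays was left out, with an offset of 8 (adjusted p = 0.0884) and with the 2 populations fitted alone (0.17). That of CD34+ against remaining basal cells ended without the first remaining basal replicate (0.0555), with a covariate for array brightness (0.052) and with the 2 populations alone (0.111). The call for Gata6+Itga6- cells ended with the 2 populations fitted alone (0.0549). Cyp26a1 averaged between 1.50 and 1.54, under the silent level, in all 4 populations.

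Rarres1, named for its response to retinoids, averaged 5.58 ± 0.68 in Gata6+Itga6- cells, 4.03 ± 0.90 in Gata6+Itga6+ cells, 1.86 ± 0.10 in CD34+ cells and 4.04 ± 1.16 in remaining basal cells (SD, n = 3 each). It was at least 8.67-fold higher in the Gata6+Itga6- cells than in CD34+ cells (adjusted p = 0.00278), the single call for this gene. Dhrs7 was at least 1.75-fold higher in the Gata6+Itga6+ cells than in CD34+ cells (3.27 against 2.20, adjusted p = 0.0106), a call that ended with the brightest probe set (adjusted p = 0.53). Dgat1, which esterifies retinol as well as diacylglycerol, was 1.57-fold lower in Gata6+Itga6- cells than in CD34+ cells (2.82 against 3.46, adjusted p = 0.0338), a call that ended under 16 of 25 settings. The receptors Rara, Rarb, Rxra, Rxrb, Rxrg and Ppard, the coregulators Ncor1 and Nrip1 and the carriers Fabp5, Rbp2, Rbp4 and Rbp7 were not called. Of these, Rarb, Rxrg, Rbp4, Rbp7 and Fabp5, the last read by 1 probe set, lay under the silent level in all 4 populations. Their lack of a call therefore says little. The receptor partner Rxra averaged 5.61, 5.32, 5.09 and 4.90 in Gata6+Itga6-, Gata6+Itga6+, CD34+ and remaining basal cells.

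**Figure D4:**
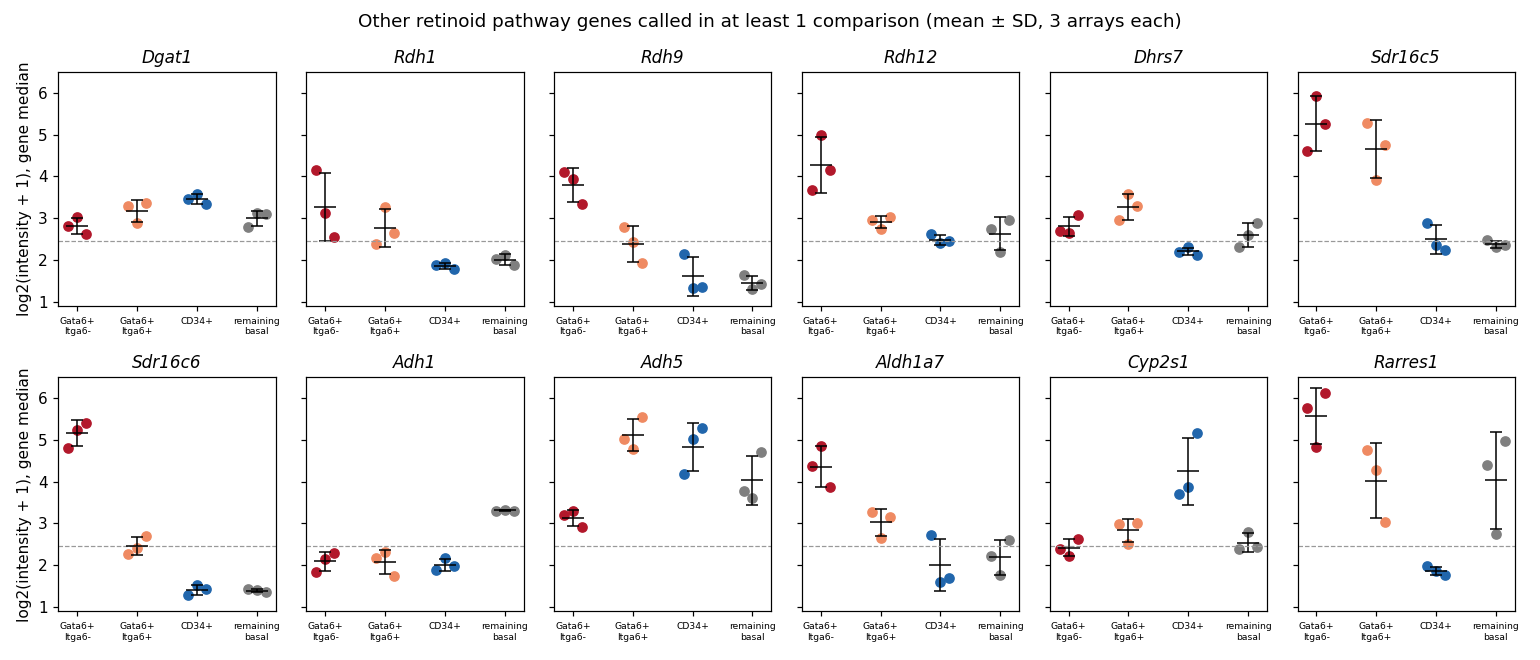
Level of the 12 further retinoid pathway genes called in at least 1 comparison, as log2(intensity + 1), on every array. Points are arrays, bars the mean ± SD of 3 arrays and the dashed line the silent level; Sdr16c6 averaged 5.16 in Gata6+Itga6- cells against 1.39 in remaining basal cells, and Adh1 stood out in remaining basal cells at 3.31.

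The genes whose levels over the 12 arrays were most like each called gene were found among 8945 candidates by Pearson correlation, as a description of arrays that share their populations. For Crabp2 they were the sort gene Gata6 (r = 0.995), whose reporter set the gates, the cornified envelope gene Sprr1a (0.988) and Nebl (0.987). Sprr1a averaged 9.78 in Gata6+Itga6- cells, 7.15 in Gata6+Itga6+ cells, 2.62 in CD34+ cells and 3.39 in remaining basal cells. For Crabp1 they were the matrix gene Ltbp2 (0.980), Myoc (0.976) and the sort gene Cd34 (0.975), and for Cyp26b1 they were Angptl7 (0.959), Trim32 (0.955) and Chat (0.954). For Adh7 they were the calcium sensor Vsnl1 (0.952), the purine receptor P2ry1 (0.934) and Ppic (0.932). Vsnl1 averaged 1.74 in Gata6+Itga6- cells, 6.86 in Gata6+Itga6+ cells, 5.83 in CD34+ cells and 4.14 in remaining basal cells. For Aldh1a1 they were Lgals8 (0.933), Cxcl16 (0.907) and Pcdh19 (0.905). Lgals8 and Cxcl16 were themselves not called across the populations (F test, adjusted p = 0.11 and 0.0553).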

How the data were processed

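The authors deposited an intensity for each of 235932 probe sets, made by RMA in Affymetrix Power Tools on build mm9, per the submitters' processing notes, which state no versions. Their scale is not stated and was read as linear from the values (array medians 3.97 to 4.57, maxima 2172 to 2953). All log2 levels and folds rest on that reading. Probe sets with 1 symbol were used (221205; 1684 had several and 13043 none), with symbols updated through a RefSeq gene table of GRCm38.p6, whose gene coordinates were not used with the arrays. Intensities were taken as log2(value + 1) and the median probe set was the gene's level. One mean per population was fitted to 12 arrays with limma 3.58.1 in R 4.3.3 (residual degrees of freedom 8, prior 2.12), and p-values were adjusted by Benjamini-Hochberg over all genes or all probe sets. The number of arrays limits the precision. An exact permutation test of 3 against 3 arrays cannot go below 0.1 and was not used.

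The genes, the pathway list and the marker lists were chosen with earlier results of these data known. The named genes are the 9 genes, the pathway genes called in at least 1 comparison, and for each called gene the 3 genes most like it, passing over predicted genes and genes under the silent level in all populations. Receptors, Cyp26a1 and single probe sets were named after their values were seen. Alternatives changed the gene level, offset, normalization, filter, variance model, covariate, block and samples.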

Additional observations from a re-analysis of the deposited data

How the results depend on the processing

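Of the 17 calls of the 8 genes, 9 held under all 25 settings and 15 held without any single array. Of the 29 calls of the pathway list, 12 and 20 did. With the brightest probe set for each gene, 3 genes differed across populations in place of 5, and 2, 2 and 0 were called, in place of 4, 4 and 2, for Gata6+Itga6- against CD34+, Gata6+Itga6+ against CD34+ and CD34+ against remaining basal cells. Crabp1 then turned direction, to 0.49, 0.33 and -0.25 (log2; adjusted p = 0.287, 0.661 and 0.703). In Gata6+Itga6+ against remaining basal cells, 1 gene was called in place of 3 with a covariate for array brightness and 1 with the 2 populations fitted alone. Leaving out arrays gave 1 to 3, with 1 without the first remaining basal replicate. For the pathway list, an offset of 8 gave 2 in place of 4 calls for Gata6+Itga6+ against CD34+ cells and 1 in place of 3 against remaining basal cells, where the covariate also gave 1. The list had 1 call in place of 2 for CD34+ against remaining basal cells with the covariate and with the 2 populations alone, and 1 to 3 with single arrays left out, the 1 without the first remaining basal replicate. For Gata6+Itga6- against Gata6+Itga6+ cells it had 1 to 4 in place of 4 with single arrays left out: 2 without replicate 2 or 3 of Gata6+Itga6- or replicate 2 of Gata6+Itga6+ cells, and 1 without replicate 3 of Gata6+Itga6+ cells. The cause was not tested.

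The labels state no pairing of arrays. Deviations of arrays with the same replicate number correlated at -0.14 to 0.28. By the letter in the array's label they correlated at 0.04 to 0.28 between Itga6+ populations. Between those and Gata6+Itga6- cells they correlated at -0.17 to 0.11. These values do not settle whether arrays were paired. With the replicate block, 5 of the 8 genes were called in place of 4 for Gata6+Itga6- against CD34+ cells, the added gene being Aldh1a1 (adjusted p = 0.0367). The pathway list then had 3 calls in place of 4 for Gata6+Itga6- against Gata6+Itga6+ cells, without Rdh12 (adjusted p = 0.0771), and the call of Dgat1 in Gata6+Itga6- against CD34+ cells ended (0.0694). For Gata6+Itga6+ against CD34+ cells the list had 5 in place of 4. With the letter as the block instead, the Aldh1a1 call was not gained. The calls of Rdh12 and Dgat1 ended there too, in the same comparisons (adjusted p = 0.071 and 0.0721). In CD34+ cells the letters do not follow the replicate numbers as they do in the other populations. Among the 31 comparisons of single genes without a call, 11 calls were gained over 763 values.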
